A study of Mus musculus with 16 samples.

Results

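Expression of 36 endothelial cell identity genes was followed in C57BL/6 mice after sunitinib or vehicle. The tissues were brown, epididymal white and inguinal white adipose tissue and liver. Not all of these genes are exclusive to endothelium, as Ets1 and Lyl1 are also transcribed in lymphocytes or other blood cells. The genes were chosen by symbol, and all 36 were present in each of the 4 tables, among 24934 symbols listed in at least 1 table and 16889 listed in all of them. Endothelial cells line blood vessels, and a shared programme of ETS, SOX and TAL1-type transcription factors keeps on the genes for their junctions, surface glycoproteins and signalling proteins. In fat, capillary endothelium delivers fatty acids and oxygen to adipocytes, and in brown fat the capillary network is dense. Sunitinib (Sutent) is a small molecule that inhibits receptor tyrosine kinases, among them the vascular endothelial growth factor (VEGF) receptors on which many endothelial cells depend.

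The groups were sunitinib and vehicle in brown adipose tissue (BAT), epididymal white adipose tissue (eWAT), inguinal white adipose tissue (iWAT) and liver, with 2 libraries per group and 16 libraries in all. All mice were C57BL/6 and 24 weeks old, with no genetic modification named. The series lists 8 mice, 4 per treatment. Dose, route, duration and sex, and whether a library holds RNA of 1 mouse or of several, are not stated in these sources. The p-values therefore reflect no more than the variation among the libraries at hand, which may be technical. Libraries are named by the replicate number in their titles, which for the sunitinib livers is 3 and 4.

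The values were regularized log2 (rlog) expression, for which the authors deposited 1 table per tissue. An rlog difference of 1 is a 2-fold change, but values of genes with few reads are drawn towards their mean, so such genes show small differences. The depth of the libraries is unknown, since the tables hold no counts. Tissue markers matched the labels. Ucp1, the uncoupling protein of brown adipocytes, lay at 16.93 and 16.80 in sunitinib BAT and 16.68 and 16.46 in vehicle BAT, and the adipocyte hormone gene Adipoq lay between 15.63 and 16.21 in every white fat library. Alb, which encodes albumin, lay at 20.13 and 20.14 in sunitinib livers and 20.32 and 20.33 in vehicle livers. Libraries stood apart in markers of neighbouring tissue. The mean rlog of 8 skeletal muscle genes was 9.94 and 9.26 in sunitinib BAT against 8.00 and 11.88 in vehicle BAT, and 12.19 and 8.75 in sunitinib iWAT against 14.12 and 12.87 in vehicle iWAT. The mean of 10 lymphocyte genes was 6.42 and 9.78 in sunitinib iWAT against 5.38 and 5.79 in vehicle iWAT. Crisp1, a gene of the epididymal duct, lay at 12.66 and 5.98 in sunitinib eWAT against 6.21 and 6.05 in vehicle eWAT. In these bulk samples, fewer endothelial cells, less RNA per endothelial cell and a change in other cells of the sample cannot be told apart.

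The members include the ETS factors Erg, Fli1 and Ets1, and ETS motifs are common in promoters of endothelial genes. A RefSeq promoter (build GRCm38.p6, 250 bases before to 50 after the start) was at hand for 19 of the 36 genes, in 25 promoters. The authors' tables use build mm9, so these coordinates are RefSeq's own. The ETS motifs AGGAAG and CCGGAAG were searched on both strands. At least 1 of them occurred in 13 of the 25 promoters and in 41.2% of all 32851 promoters in the RefSeq set. The SOX motif AACAAT occurred in 4 of 25 and in 10.7% of all promoters, and the E-box CANNTG of TAL1-type factors in 19 of 25 and in 72.3%. The promoters of the 4 matched genes with the smallest p in eWAT, the tissue with called members, are printed. They are written 5′ to 3′ on the gene's own strand with ETS motifs in capitals. A motif on the other strand appears as its reverse complement. The windows are chr8:71395752-71396051 (minus strand) for Ushbp1, chr16:18776597-18776896 (plus strand) for Cldn5, chr8:84701207-84701506 (plus strand) for Lyl1 and chr9:37401722-37402021 (plus strand) for Robo4.
Ushbp1: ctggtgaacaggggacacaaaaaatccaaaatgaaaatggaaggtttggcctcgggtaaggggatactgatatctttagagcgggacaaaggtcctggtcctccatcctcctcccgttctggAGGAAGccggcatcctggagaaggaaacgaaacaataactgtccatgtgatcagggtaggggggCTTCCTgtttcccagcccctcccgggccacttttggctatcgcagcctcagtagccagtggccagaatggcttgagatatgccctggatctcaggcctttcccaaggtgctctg
Cldn5: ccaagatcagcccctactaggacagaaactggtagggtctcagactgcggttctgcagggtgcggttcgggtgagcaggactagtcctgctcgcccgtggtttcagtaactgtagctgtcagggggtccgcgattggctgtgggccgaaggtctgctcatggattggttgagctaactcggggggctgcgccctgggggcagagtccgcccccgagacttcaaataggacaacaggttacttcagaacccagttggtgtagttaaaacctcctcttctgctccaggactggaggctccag
Lyl1: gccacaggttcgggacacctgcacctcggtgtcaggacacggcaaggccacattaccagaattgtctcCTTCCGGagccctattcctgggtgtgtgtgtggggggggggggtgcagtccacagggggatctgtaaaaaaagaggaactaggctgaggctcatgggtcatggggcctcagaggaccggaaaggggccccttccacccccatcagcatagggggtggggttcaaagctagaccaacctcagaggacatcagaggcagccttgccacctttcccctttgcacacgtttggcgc
Robo4: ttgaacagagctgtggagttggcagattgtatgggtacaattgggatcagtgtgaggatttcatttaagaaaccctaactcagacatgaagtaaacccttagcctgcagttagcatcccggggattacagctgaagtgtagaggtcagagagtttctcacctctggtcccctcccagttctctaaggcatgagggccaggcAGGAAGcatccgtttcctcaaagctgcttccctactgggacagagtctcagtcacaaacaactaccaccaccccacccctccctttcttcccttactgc
The Ushbp1 window held a match on each strand, those of Lyl1 and Robo4 held 1 each, and that of Cldn5 held none of these letters. The motif share of the set was not tested, and a match is no evidence of binding.

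In epididymal white fat, the glycoprotein genes Cd93 and Cd300lg fell after sunitinib. Cd93 is a lectin-domain receptor of angiogenic endothelium that binds the matrix protein Mmrn2. Cd93 stood at 9.32 and 9.35 in sunitinib libraries and at 10.17 and 10.37 in vehicle libraries, a difference of −0.94 ± 0.09 (SE, limma adjusted p = 0.0217). Cd300lg, a mucin-like receptor of capillaries, stood at 9.85 and 9.90 in sunitinib libraries and 10.58 and 10.81 in vehicle libraries, a difference of −0.82 ± 0.09 (limma adjusted p = 0.0315). Neither gene's groups overlapped. The test was limma on each whole table with Benjamini-Hochberg adjustment over all genes tested. These 2 were the called members of 36, where 2.06% of all 15526 genes tested were called lower, and 0 members were called higher, where 0.277% were. Both sunitinib libraries lay below both vehicle libraries for 23 of 36 members, against 26.8% of all genes, and above both for 0, against 27% of all genes. Of the 36 differences 30 were negative and 6 positive, against 46.7% and 53.3% of all genes. At an unadjusted p under 0.05, 16 members were lower and 0 higher, against 11.9% and 8.14% of all genes. The median difference of the 36 was −0.27, beside 0.0089 over all genes.

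Junction genes hold endothelial cells together. Cdh5, the endothelial cadherin, stood at 9.99 and 10.08 in sunitinib eWAT and 10.48 and 10.98 in vehicle eWAT, a difference of −0.70 ± 0.17 that did not pass (limma adjusted p = 0.120). The tight-junction claudin Cldn5 stood at 9.35 and 9.63 in sunitinib libraries and 9.91 and 10.16 in vehicle libraries (−0.54 ± 0.13, limma adjusted p = 0.115). Neither gene's groups overlapped, and the vehicle libraries were further apart than the sunitinib libraries for Cdh5. The 7 junction and adhesion genes had a median of −0.36, with 5 lower without overlap, against 26.8% of all genes. The platelet endothelial adhesion gene Pecam1 was at −0.40 ± 0.17, Esam at −0.36 ± 0.13 and Icam2 at −0.24 ± 0.08, while the arterial connexin genes Gja4 and Gja5 were at 0.03 ± 0.20 and −0.11 ± 0.13.

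Among the other surface genes, Robo4, a guidance receptor that stabilises vessels, was at −0.48 ± 0.12, Mmrn2, the matrix ligand of Cd93 and Clec14a, at −0.39 ± 0.12, and Eng, a coreceptor for bone morphogenetic proteins, at −0.36 ± 0.17. The sialomucin Emcn and the lectin-domain gene Clec14a were at −0.14 ± 0.12 and −0.08 ± 0.13. Plvap, which forms the diaphragms of fenestrae and caveolae, was the member with the most positive value, 0.18 ± 0.23. Of the secreted proteins, Egfl7, an endothelial matrix factor, stood at 9.34 and 9.39 in sunitinib libraries and 9.40 and 9.89 in vehicle libraries (−0.28 ± 0.17). Vwf, the von Willebrand factor of haemostasis, stood at 9.50 and 9.20 in sunitinib libraries against 9.28 and 10.02 in vehicle libraries (−0.30 ± 0.26), so its groups overlapped. The proteoglycan gene Esm1, a known VEGF-induced gene, stood at 3.79 and 3.89 in sunitinib libraries and 3.86 and 3.91 in vehicle libraries (−0.05 ± 0.05).

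Of the 8 transcription factors, 7 did not overlap and lay lower, against 26.8% of all genes, with a median of −0.28. Fli1, an ETS factor, stood at 7.46 and 7.68 in sunitinib eWAT and 7.93 and 8.06 in vehicle eWAT (−0.43 ± 0.11, limma adjusted p = 0.122). Lyl1, a basic helix-loop-helix factor of blood and endothelium, stood at 7.14 and 7.24 in sunitinib libraries and 7.48 and 7.48 in vehicle libraries (−0.29 ± 0.07, limma adjusted p = 0.123). The remaining ETS factors Erg and Ets1 were at −0.42 ± 0.15 and −0.38 ± 0.14. Sox17 and Sox18 were at −0.28 ± 0.10 and −0.22 ± 0.14, and Tal1, a related helix-loop-helix factor, at −0.12 ± 0.08. Sox7 was at 0.07 ± 0.17.

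Receptor, ligand and channel genes had the median closest to 0 of the 6 role groups in eWAT, −0.10 over 5. Ramp2, which with Calcrl forms the adrenomedullin receptor, stood at 8.84 and 8.80 in sunitinib libraries and 8.93 and 9.03 in vehicle libraries (−0.16 ± 0.07), and Calcrl was at 0.03 ± 0.14. Kcne3, a potassium channel subunit, stood at 3.89 and 3.91 in sunitinib libraries and 4.04 and 4.00 in vehicle libraries (−0.12 ± 0.03, limma adjusted p = 0.146). Efnb2, the arterial ephrin, was at −0.10 ± 0.13, and its venous receptor Ephb4 at 0.0047 ± 0.11. Among signalling genes, Nos3, the endothelial nitric oxide synthase, stood at 9.001 and 8.979 in sunitinib libraries and 9.29 and 9.33 in vehicle libraries (−0.32 ± 0.06, limma adjusted p = 0.0707). Ushbp1, a harmonin-binding protein, stood at 8.38 and 8.56 in sunitinib libraries and 8.91 and 9.29 in vehicle libraries (−0.63 ± 0.15, limma adjusted p = 0.108). For both genes the groups lay apart. Rasip1 and Arhgef15, signalling proteins of vessels, were at −0.27 ± 0.14 and −0.20 ± 0.14, and the arterial kinase Bmx at 0.02 ± 0.05.

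The vehicle libraries of eWAT were not alike. Vehicle replicate 2 lay above replicate 1 for 35 of 36 members, and the median absolute gap within the vehicle pair was 0.33 for members, against 0.065 over all genes. Without vehicle replicate 2 the median of the members was −0.11, with 24 negative and 12 positive. There 23 members lay lower without overlap and 8 higher, against 37.8% and 39.3% of all genes. Without vehicle replicate 1 the median was −0.40, with 36 negative and 34 lower without overlap, against 35.5% of all genes. Neither Cd93 nor Cd300lg passed without vehicle replicate 1 or without vehicle replicate 2, and neither did any other gene of the table. There the spread came from the sunitinib pair alone. With no filter on low values Cd300lg missed the threshold (limma adjusted p = 0.0521). Over all 12 alternatives the adjusted p of Cd93 ran between 0.0029 and 0.257, and that of Cd300lg between 0.0166 and 0.257, with differences of −1.04 to −0.83 and −0.93 to −0.70. In the same libraries 15 of 15 macrophage genes were negative, with a median of −0.79. Of these, 14 lay lower without overlap, against 26.8% of all genes, and 10 were called lower, against 2.06%. Their mean rlog was 9.77 and 9.81 after sunitinib against 10.63 and 10.65 after vehicle. The 10 epithelial and epididymal duct genes had a mean of 8.70 and 7.76 after sunitinib against 6.47 and 6.98 after vehicle. Of these 1 was called higher, against 0.277% of all genes. It was the claudin gene Cldn7 (0.99 ± 0.14, limma adjusted p = 0.0484). Pericyte and smooth muscle genes had a mean of 9.41 and 8.44 after sunitinib against 8.46 and 8.76 after vehicle. Of the 14, 9 were negative, with a median of −0.18. At an unadjusted p under 0.05, 5 were lower and 0 higher, against 11.9% and 8.14% of all genes. Of 10 fibroblast genes 7 were negative and 2 were called lower, against 2.06% of all genes called lower. Their median was −0.38, with a mean of 11.89 and 12.01 after sunitinib against 12.22 and 12.23 after vehicle. The part of these cell types in the endothelial values was not tested. Without sunitinib replicate 1, the library with high Crisp1, 31 of 36 members were negative and 2 were called lower, against 2.5% of all genes. Without sunitinib replicate 2, 4 were called lower, against 3.09% of all genes.

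A further list held 26 endothelial genes outside the 36. Of 24 tested in eWAT, 23 were negative, with a median of −0.22, and 17 did not overlap and lay lower, against 26.8% of all genes. None was called in limma, and 8 were lower at an unadjusted p under 0.05, against 11.9% of all genes. The smallest p were those of Gpihbp1, the capillary anchor of lipoprotein lipase, at −0.54 ± 0.10 (limma adjusted p = 0.0689), and the Notch ligand Dll4 at −0.56 ± 0.12 (limma adjusted p = 0.0874). The 7 lymphatic endothelial genes were all positive, with a median of 0.19 and 0 called. At an unadjusted p under 0.05, 1 was higher, against 8.14% of all genes.

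**Figure D1:**
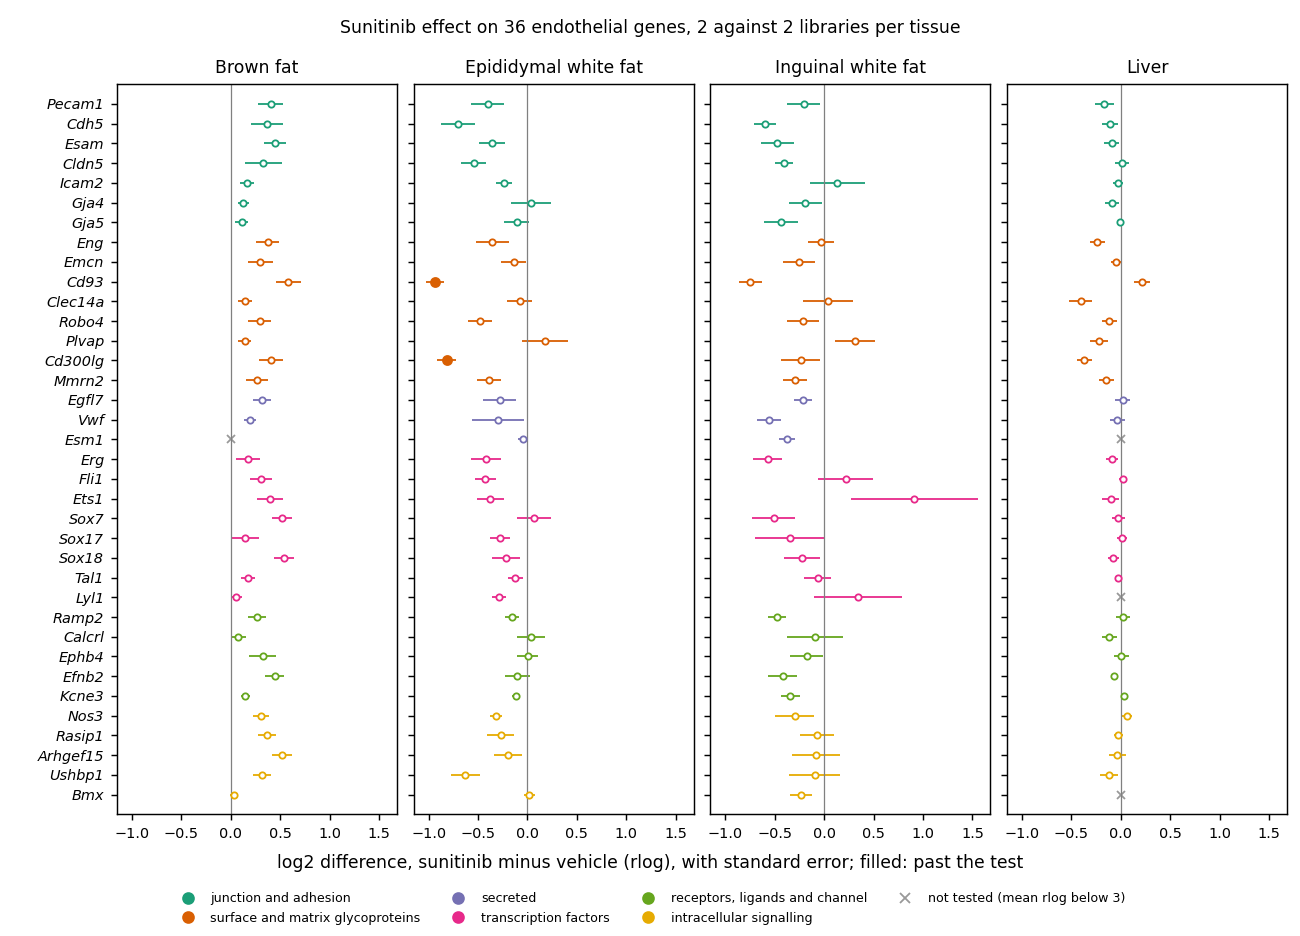
Log2 difference (sunitinib minus vehicle, horizontal axis) of each of the 36 genes in the 4 tissues, with its standard error from limma; filled points passed the test and crosses were not tested. Tested genes lie right of 0 in brown fat (35 of 35), mostly left of 0 in both white fats (30 of 36 in each), and close to 0 in liver (median −0.05).

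In brown fat the same genes lay on the other side. All 35 members tested had a positive difference and 0 a negative one, against 48.4% and 51.6% of all 13044 genes tested. For 30 of them both sunitinib libraries lay above both vehicle libraries and for 0 below, against 26.2% and 24% of all genes. The median difference was 0.30, with a range of 0.03 for Bmx to 0.58 for Cd93, beside a median of −0.0046 over all genes. No member passed the test, as no gene of the BAT table did (0% called higher and 0% lower, limma), and the smallest adjusted p of a member was 0.228. At an unadjusted p under 0.05, 18 members were higher and 0 lower, against 9.13% and 6.98% of all genes.

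Sox18 and Arhgef15 had the smallest p of the members in BAT. Sox18, a factor of vessel growth, stood at 8.84 and 8.72 in sunitinib libraries and 8.36 and 8.12 in vehicle libraries (0.54 ± 0.10, limma adjusted p = 0.228). Sox7 was at 0.52 ± 0.10, while Sox17 was at 0.14 ± 0.14 with groups that overlapped. Erg and Lyl1 overlapped too, at 0.17 ± 0.12 and 0.06 ± 0.06. Fli1, Ets1 and Tal1 did not overlap, at 0.30 ± 0.11, 0.40 ± 0.13 and 0.17 ± 0.07.

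Arhgef15, a guanine nucleotide exchange factor of vessels, stood at 9.71 and 9.54 in sunitinib BAT and 9.21 and 9.01 in vehicle BAT (0.52 ± 0.10, limma adjusted p = 0.228). Its neighbours in role were at 0.37 ± 0.09 for Rasip1, 0.31 ± 0.09 for Ushbp1 and 0.30 ± 0.08 for Nos3. All 7 junction genes and all 8 surface genes lay higher without overlap, against 26.2% of all genes, with medians of 0.33 and 0.30. Cd93 stood at 9.99 and 9.79 in sunitinib libraries and 9.46 and 9.15 in vehicle libraries (0.58 ± 0.13, limma adjusted p = 0.228), and Cd300lg at 10.61 and 10.42 in sunitinib libraries against 10.26 and 9.96 in vehicle libraries (0.41 ± 0.12). Esam was at 0.45 ± 0.11 and Pecam1 at 0.40 ± 0.13. Efnb2 was the highest of the receptors and ligands at 0.44 ± 0.10, and the secreted factor Egfl7 was at 0.31 ± 0.09. Vwf stood at 8.02 and 8.08 in sunitinib BAT and 7.85 and 7.87 in vehicle BAT (0.19 ± 0.06). Esm1 lay at −0.55 in both sunitinib libraries and at −0.55 and −0.52 in vehicle libraries, under the minimum level, and was not tested.

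The size of the BAT difference depended on the vehicle pair. Vehicle replicate 2, the library with the skeletal muscle mean of 11.88, lay below vehicle replicate 1 for 32 of 36 members. Without it the median was 0.17, 34 of 35 members were positive, 31 did not overlap and lay higher, against 39.4% of all genes, and 5 were called higher, against 2.83%. Without vehicle replicate 1 the median was 0.42 and 22 were called higher, against 3.62% of all genes. Without sunitinib replicate 1 or replicate 2 it was 0.23 or 0.35 and 0 were called, as was no gene of the table. With 1 library in a group the spread comes from the pair left intact. The part of muscle tissue in the values was not tested. Of 24 other endothelial genes tested, 22 were positive and 19 did not overlap and lay higher, against 26.2% of all genes. The median of the 24 was 0.32, with 0 called and 15 higher at an unadjusted p under 0.05, against 9.13% of all genes. Dll4 was at 0.53 ± 0.08 and Tmem204, a claudin-like membrane protein, at 0.50 ± 0.08 (limma adjusted p = 0.228 for each). Macrophage genes were negative in 13 of 13, with a median of −0.13, and pericyte and smooth muscle genes positive in 10 of 14, with a median of 0.11.

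**Figure D2:**
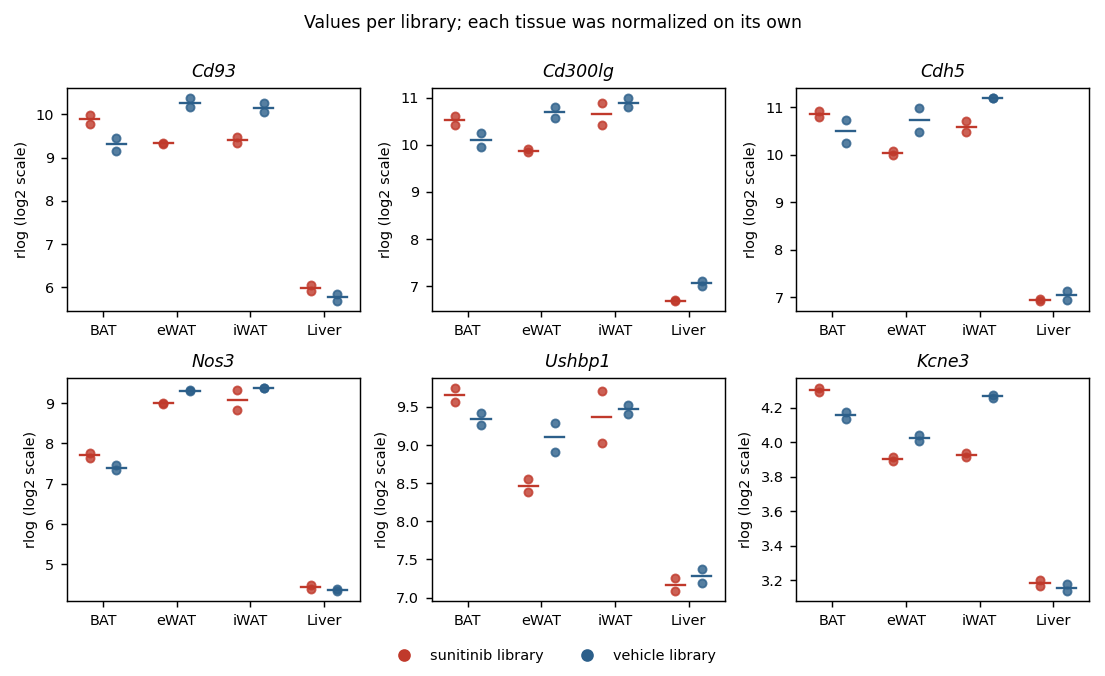
The rlog value (vertical axis, log2 scale) of 6 endothelial genes in every library, with sunitinib left of vehicle in each tissue and a bar at the mean of 2 libraries. Cd93 and Cd300lg in eWAT show sunitinib points (9.32 to 9.35 and 9.85 to 9.90) below vehicle points (10.17 to 10.37 and 10.58 to 10.81), and the 6 genes lie higher after sunitinib in BAT.

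The effect of sunitinib was next compared between tissues, as the difference of the within-tissue differences, with an interaction contrast in limma for each of 6 pairs of tissues. Pairs with a tissue in common share its libraries. The labels do not tie libraries to mice, so libraries of different tissues may come from the same mice. The fit treated all libraries of a pair as independent. Between BAT and eWAT the effect differed for 5 of 35 members tested in both, all higher in BAT, where 2.99% of 12661 genes were called in that direction and 0 members in the other (0.648%). The difference was 1.52 ± 0.17 for Cd93 (adjusted p = 0.00626), 1.22 ± 0.17 for Cd300lg (adjusted p = 0.0133), 0.62 ± 0.10 for Nos3 (adjusted p = 0.0194), 0.27 ± 0.05 for Kcne3 (adjusted p = 0.0332) and 0.94 ± 0.19 for Ushbp1 (adjusted p = 0.0413), all from limma. Nos3 in BAT stood at 7.76 and 7.64 after sunitinib against 7.46 and 7.34 after vehicle. Kcne3 in BAT stood at 4.31 and 4.29 after sunitinib against 4.14 and 4.17 after vehicle. Its values were low in both tissues, where rlog also shrinks the spread, and a minimum mean of 5 left it out. Ushbp1 in BAT stood at 9.75 and 9.56 after sunitinib against 9.42 and 9.26 after vehicle. In all 3 genes the order of the groups in BAT was the opposite of that in eWAT. Of the 35 members, 34 had a positive difference of effects and 1 a negative one, with a median of 0.59, against 50.4% and 49.6% of all genes. At an unadjusted p under 0.05, 24 were higher and 0 lower, against 13.4% and 8.55% of all genes. Cd93 passed under all 14 alternatives (adjusted p between 0.0018 and 0.0439). Cd300lg passed under 12, Nos3 under 10, Ushbp1 under 7 of 14 and Kcne3 under 5 of 13, with adjusted p up to 0.0730, 0.0942, 0.166 and 0.123. The count called higher in BAT moved with the library left out, as did the share of all genes called in that direction. It was 13 without BAT vehicle replicate 1 (3.34% of all genes) and 4 without BAT vehicle replicate 2 (2.01%). It was 9 without eWAT vehicle replicate 1 (1.81%) and 1 without eWAT vehicle replicate 2 (0.869%). It was 1 without BAT sunitinib replicate 1 (0.616%), 2 without BAT sunitinib replicate 2 (0.814%) and 3 without eWAT sunitinib replicate 1 (1.94%).

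**Figure D3:**
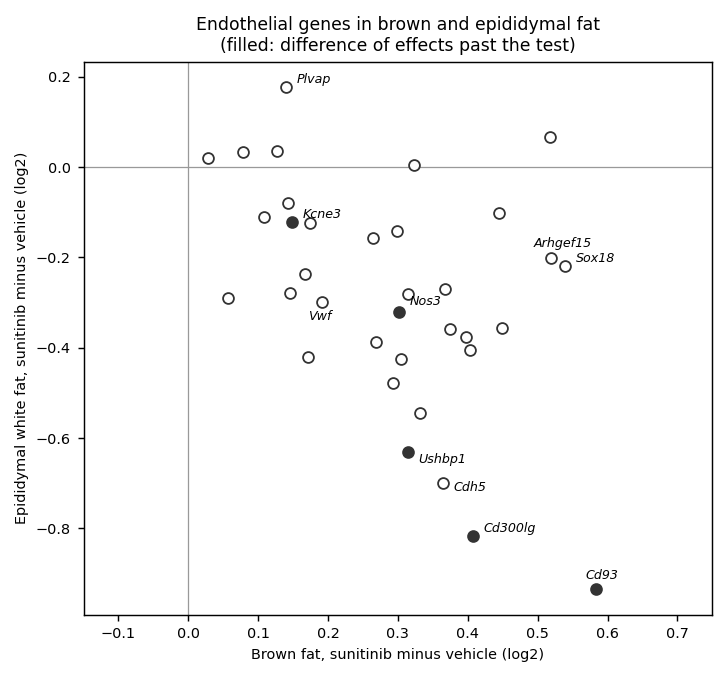
Log2 difference (sunitinib minus vehicle) of 35 endothelial genes in brown fat (horizontal axis) and in epididymal white fat (vertical axis); filled points passed the test of the difference between the 2 effects. The points lie right of 0 in brown fat, and the 5 filled genes lie below 0 in epididymal fat, with Cd93 at 0.58 and −0.94 the farthest out.

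Between eWAT and liver the effect on Cd93 also differed, at −1.15 ± 0.13 (limma adjusted p = 0.00327), as 1 of 33 members where 2.81% of 11831 genes were called in that direction. It passed under all 14 alternatives, with adjusted p up to 0.0219. Nos3 came next at −0.39 ± 0.09 (limma adjusted p = 0.0537). Of the 33 differences 27 were negative, against 52.5% of all genes, and 10 were lower at an unadjusted p under 0.05, against 10.9%. Without eWAT vehicle replicate 1, 6 were called lower (2.32% of all genes), and without eWAT sunitinib replicate 2, 3 were (3.41%). Without eWAT vehicle replicate 2, 1 was called lower and 1 higher (1.62% and 0.862%). The other 4 pairs called 0 members. Between BAT and iWAT the smallest p were those of Cd93 at 1.33 ± 0.19 (limma adjusted p = 0.116) and Vwf at 0.75 ± 0.13 (limma adjusted p = 0.148). There 32 of 35 differences were positive and 3 negative, with a median of 0.53, against 49.6% and 50.4% of all genes. At an unadjusted p under 0.05, 19 were higher and 0 lower, against 8.64% and 5% of all genes, and 0.0314% of all genes were called. Between BAT and liver they were Cd300lg at 0.78 ± 0.15 and Sox18 at 0.62 ± 0.12 (limma adjusted p = 0.132 for each), with a median of 0.36 and 0% of all genes called. There 33 of 33 were positive and 0 negative, against 48.8% and 51.2% of all genes, and 24 were higher and 0 lower at an unadjusted p under 0.05, against 8.6% and 5.77%. Between eWAT and iWAT they were Esm1 at 0.33 ± 0.08 (limma adjusted p = 0.442) and Ramp2 at 0.32 ± 0.10 (limma adjusted p = 0.460), with 20 of 36 negative, against 51.2% of all genes, and 0% called. There 1 member was lower and 3 were higher at an unadjusted p under 0.05, against 4.38% and 5.68% of all genes. Between iWAT and liver they were Cd93 at −0.96 ± 0.16 (limma adjusted p = 0.131) and Kcne3 at −0.37 ± 0.08 (limma adjusted p = 0.180), with 0.043% of all genes called. There 24 of 33 were negative, against 48.1% of all genes, and 9 were lower at an unadjusted p under 0.05, against 8.54%. Without iWAT sunitinib replicate 1 the 3 pairs with iWAT called 21 (BAT), 5 (eWAT) and 18 (liver) members in either direction, against 19%, 21.3% and 26.2% of all genes. Without iWAT sunitinib replicate 2 the pairs with BAT and liver called 4 and 5, against 3.22% and 7.36%. Without BAT vehicle replicate 1 the pair of BAT and liver called 16, against 2.9%.

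Across the 3 fat tables, 24 of 35 members were positive in BAT and negative in both white fats, as were 12.5% of the 12558 genes tested in all 3. Groups lay apart as higher in BAT and lower in eWAT for 20 members (7.13% of all genes), and as lower in both white fats for 10 (13%). There were 9 members that did both (2.77% of all genes). They were the junction genes Cdh5, Cldn5 and Esam, the matrix receptor pair Cd93 and Mmrn2, and Egfl7, Kcne3, Nos3 and Ramp2.

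In inguinal white fat 30 of 36 members were negative and 6 positive, against 48.6% and 51.4% of all 14916 genes tested. For 18 the sunitinib libraries lay below without overlap and for 0 above, against 26.4% and 24% of all genes. No member and no gene of the table passed (0%, limma), and 10 members were lower and 0 higher at an unadjusted p under 0.05, against 8.8% and 3.88% of all genes. The median of the members was −0.23, beside 0.0098 over all genes. Cd93 stood at 9.47 and 9.34 in sunitinib iWAT and 10.25 and 10.06 in vehicle iWAT (−0.75 ± 0.12, limma adjusted p = 0.308). Cdh5 stood at 10.70 and 10.48 in sunitinib libraries and 11.19 and 11.19 in vehicle libraries (−0.60 ± 0.11, limma adjusted p = 0.313). For both genes the gap between groups was wider than the gap within either pair.

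Vwf in iWAT stood at 8.92 and 9.08 after sunitinib against 9.64 and 9.48 after vehicle (−0.56 ± 0.12), and Ramp2 at 8.88 and 8.88 after sunitinib against 9.37 and 9.35 after vehicle (−0.48 ± 0.09). Esm1 stood at 3.14 and 3.11 after sunitinib against 3.49 and 3.52 after vehicle (−0.38 ± 0.08). Kcne3 stood at 3.93 and 3.91 after sunitinib against 4.27 and 4.26 after vehicle (−0.34 ± 0.10). The limma adjusted p of these genes lay at 0.313 or 0.354, and in each of them the groups lay apart. Junction genes had a median of −0.41 in iWAT, with Cldn5 at −0.41 ± 0.09, Esam at −0.47 ± 0.17 and Gja5 at −0.43 ± 0.17. Cd300lg, called in eWAT, was at −0.24 ± 0.19 here, with 10.89 and 10.42 in sunitinib libraries and 10.99 and 10.80 in vehicle libraries.

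For the 6 members that were positive in iWAT, sunitinib replicate 2 was the highest library. Examples chosen after their values were seen are Ets1, at 9.60 and 11.43 after sunitinib against 9.54 and 9.66 after vehicle, and Lyl1, at 7.15 and 8.39 after sunitinib against 7.45 and 7.40 after vehicle. Both genes are also transcribed in lymphocytes or other blood cells. The remaining positive members were Plvap (0.31 ± 0.20), Fli1 (0.22 ± 0.27), Icam2 (0.13 ± 0.28) and Clec14a (0.04 ± 0.25). The same library had the lymphocyte mean of 9.78, and 10 of 10 lymphocyte genes were positive with a median of 2.65. All 8 skeletal muscle genes were negative with a median of −3.06. The part of lymphoid tissue or muscle in these values was not tested. Without sunitinib replicate 2, the median was still −0.23, 29 of 36 members were negative, 24 did not overlap and lay lower, against 41.1% of all genes, and 4 were called lower, against 3.09%. Without sunitinib replicate 1 the median was −0.39, and 17 were called lower and 5 higher, against 11.5% and 16% of all genes. Leaving out either vehicle library gave 0 called members and no called gene. In 1 fit over the 4 tables, with a shared spread, 8 of 33 were called lower, against 11.1% of all genes. Over 12 alternatives the adjusted p of Cd93 ran between 0.0027 and 0.999.

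The other endothelial genes in iWAT were negative in 18 of 24, with a median of −0.30 and 0 called. At an unadjusted p under 0.05, 6 of them were lower, against 8.8% of all genes. Aplnr, the apelin receptor of venous and angiogenic endothelium, stood at 7.27 and 7.06 in sunitinib libraries and 8.53 and 8.62 in vehicle libraries (−1.41 ± 0.14, limma adjusted p = 0.285). Cd34, a sialomucin of endothelium and adipose stromal cells, was at −0.83 ± 0.14 (limma adjusted p = 0.310). Fibroblast genes were negative in 10 of 10 with a median of −0.60, and pericyte and smooth muscle genes in 14 of 14 with a median of −0.31, 0 called in either list. Of 15 macrophage genes in iWAT 14 were negative and 10 lay lower without overlap, against 26.4% of all genes. The median of the 15 was −0.40, with 0 called and 4 lower at an unadjusted p under 0.05, against 8.8% of all genes. The part of these cell types in the endothelial values was not tested.

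**Figure D4:**
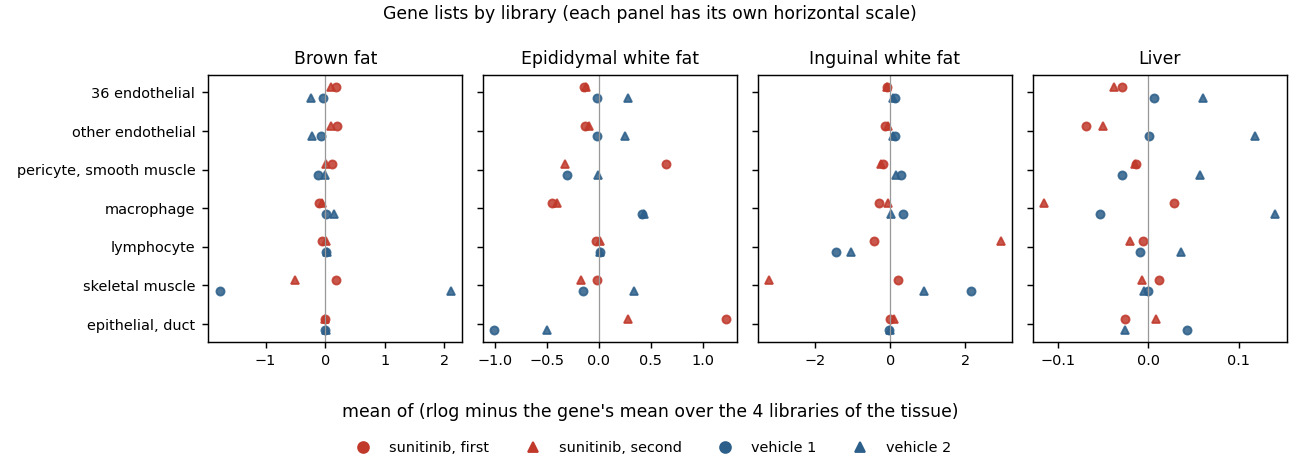
Mean of centred rlog values (horizontal axis, each gene minus its mean over the 4 libraries of the tissue) for the 36 endothelial genes and 6 other lists, with red points for sunitinib and blue points for vehicle libraries; the first of each pair is a circle and the other a triangle. Both sunitinib points of the 36 genes lie right of vehicle in BAT and left of it in eWAT and iWAT, while single libraries stand out for muscle in BAT and for lymphocytes in iWAT, and both sunitinib libraries lie right of vehicle for duct genes in eWAT.

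In liver the differences were small. Of 33 members tested, 24 were negative and 9 positive, against 48.6% and 51.4% of all 12394 genes, with a median of −0.05 beside 0.0027 over all genes. Groups did not overlap for 12 members that lay lower and 1 that lay higher, against 19.2% and 18.3% of all genes. No member passed in limma, where 0.0726% of genes were called lower and 0.121% higher, while 4 members were lower and 1 was higher by an unadjusted p under 0.05, against 5.17% and 3.47%. Cd300lg stood at 6.69 and 6.70 in sunitinib livers and 7.01 and 7.12 in vehicle livers (−0.37 ± 0.07, limma adjusted p = 0.127). Clec14a, a lectin-domain receptor that also binds Mmrn2, stood at 6.44 and 6.64 in sunitinib livers and 6.78 and 7.11 in vehicle livers (−0.41 ± 0.11, limma adjusted p = 0.282). In both the groups lay apart.

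Of the 8 surface genes, 7 lay lower without overlap in liver, against 19.2% of all genes, with a median of −0.19. They included Eng at −0.24 ± 0.07 and Plvap at −0.22 ± 0.09. The exception was Cd93, at 6.05 and 5.92 in sunitinib livers and 5.68 and 5.86 in vehicle livers (0.22 ± 0.08, limma adjusted p = 0.462). Junction genes ran between −0.17 (Pecam1) and 0.02 (Cldn5), and transcription factors between −0.10 (Ets1) and 0.02 (Fli1). Nos3 was at 0.06 ± 0.05, with 4.49 and 4.38 in sunitinib livers and 4.40 and 4.34 in vehicle livers. Sox18 stood at 5.36 and 5.32 in sunitinib livers and 5.44 and 5.39 in vehicle livers, and Kcne3 at 3.20 and 3.17 in sunitinib livers and 3.14 and 3.17 in vehicle livers. Esm1, Lyl1 and Bmx were under the minimum level in liver. Without vehicle replicate 1 or sunitinib replicate 4, 2 members were called lower, against 0.96% and 2.25% of all genes.

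Liver sinusoids are lined by a specialised, fenestrated endothelium with scavenger receptors. Of 13 sinusoidal endothelial genes tested in liver, 12 were negative, with a median of −0.21, and 10 lay lower without overlap, against 19.2% of all genes. None passed in limma, and 7 were lower at an unadjusted p under 0.05, against 5.17% of all genes. The hyaluronan receptor gene Lyve1 stood at 4.82 and 4.90 in sunitinib livers and 5.14 and 5.26 in vehicle livers (−0.34 ± 0.06, limma adjusted p = 0.0841). The lectin gene Clec4g was at −0.45 ± 0.09 (limma adjusted p = 0.141). Of 22 other endothelial genes tested, 19 were negative with a median of −0.12 and 0 called. At an unadjusted p under 0.05, 7 were lower, against 5.17% of all genes. The smallest p were those of the endothelial phosphatase gene Ptprb at −0.49 ± 0.11 (limma adjusted p = 0.192) and the receptor gene Tie1 at −0.28 ± 0.08 (limma adjusted p = 0.294).

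Levels without sunitinib were placed side by side as percentiles of the vehicle mean among the 16889 genes listed in all 4 tables, since each table was normalized on its own and rlog is not per length. They are given without a test and compare 1 gene across tissues. The median percentile of the 36 genes was 66.2 in BAT, 59.3 in eWAT, 64.3 in iWAT and 47.3 in liver. BAT held the highest percentile for 26 genes, eWAT for 5, iWAT for 2 and liver for 3, and liver the lowest for 30. Arhgef15 was at 83.5 in BAT against 56.3 in eWAT, 60.8 in iWAT and 54.7 in liver. Icam2 was at 68.9 in BAT against 50.3, 54.7 and 43.6 in the same order of tissues. The place of BAT depended on the measure. Of the 26 genes, Arhgef15, Icam2, Eng and Tal1 also had their highest vehicle rlog in BAT, while the others had a higher rlog in iWAT. Pecam1 lay at 10.74 in BAT and 11.20 in iWAT, Cdh5 at 10.50 and 11.19, and Erg at 7.65 and 8.25.

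Some genes broke this order. Esm1 was at 2.31 in BAT, where its rlog was below 0, against 20.7 in eWAT and 19.8 in iWAT. Nos3 was at 61.7 in BAT against 74.2 in eWAT and 75.6 in iWAT, and 37.7 in liver. Ramp2 was at 59.4 in BAT against 69.3 in eWAT and 75.2 in iWAT, and Lyl1 at 36.7 against 49.5 and 49.3. Plvap was highest in liver at 81.6 and lowest in BAT at 53.8, with 71.1 in eWAT and 77.1 in iWAT. Clec14a was also highest in liver, at 57.9, and Gja4 at 47.0. Cd93 was nearly level over the fat tissues, at 85.6 in BAT, 86.3 in eWAT and 85.6 in iWAT, and was at 47.6 in liver. Transcription factors had median percentiles of 62.6 in BAT, 50.5 in eWAT, 57.6 in iWAT and 37.4 in liver, and junction genes 85.7, 75.7, 81.8 and 52.8 in that order.

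**Figure D5:**
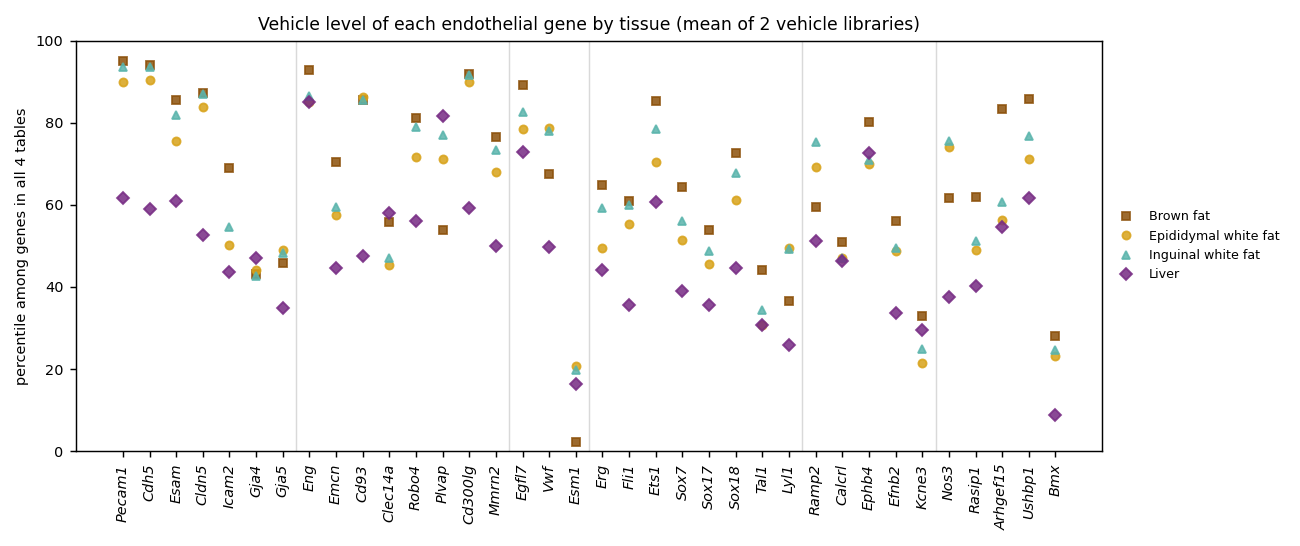
Percentile (vertical axis) of the vehicle mean of each gene among genes listed in all 4 tables, by tissue; vertical lines part the role groups. Brown fat squares lie on top for 26 genes and liver diamonds at the bottom for 30, with Plvap (81.6 in liver) and Esm1 (2.31 in BAT) as exceptions.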

How the data were processed

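RNA sequencing of total RNA (TRIzol) gave 16 libraries in 8 groups of 2. The unit of the deposited values is regularized log2 (rlog) expression as the names the authors gave the tables say. Per the file headers, each table holds 1 tissue with a column per library. The submitters' processing notes name build mm9 and the tools DESeq2, bedtools, TopHat2 2.1.1 and bcl2fastq 2.17.1.14, without a role for each. The annotation, the counting settings and any use of strand were not given in the sources used here, so overlapping or antisense genes cannot be told apart. Rlog shrinks genes with few reads towards their mean, which also shrinks their spread. Since the tables hold no counts, the depth is unknown, and intervals for counting error cannot be given. Gene symbols that appear as calendar dates (21 in BAT, 25 in eWAT, 21 in iWAT, 20 in liver) were not named.

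In each tissue, genes whose rlog averaged 3 or more across libraries entered limma 3.58.1 in R 4.3.3 (variance trend over mean level, 2 residual degrees of freedom, two-sided). This kept 13044 of 19664 genes in BAT, 15526 of 22972 in eWAT, 14916 of 22103 in iWAT and 12394 of 18566 in liver. Benjamini-Hochberg adjusted p below 0.05 over all genes tested counts as passing. An exact permutation test of 2 against 2 libraries cannot go below 0.333 and is not reported. Differences between tissues were interaction contrasts. The fits within tissues were run on simulated data with spreads shuffled over genes. The planted differences were larger than any member showed within a tissue, so those runs do not cover the sizes reported here.

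Values per library are given for members past the test, for the 2 with the smallest p of each role group in eWAT and of each other tissue, and for the 2 with the smallest p of each pair of tissues. Of other lists, genes past the test or the 1 or 2 with the smallest p are named, and the tissue markers and examples named as such were added. The members and lists were chosen with earlier results of these data known. Alternatives were other filters on low values, normalizations and variance models, 1 fit over the 4 tables, a replicate block, and leaving out each library.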

Additional observations from a re-analysis of the deposited data

Results flagged for a closer look

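For 6 values the effect of sunitinib differed between tissues by an interaction contrast in limma. Between BAT and eWAT these were Cd93 (1.52), Cd300lg (1.22), Nos3 (0.62), Kcne3 (0.27) and Ushbp1 (0.94), as log2 differences of the effects, BAT minus eWAT. Between eWAT and liver it was Cd93 (−1.15, eWAT minus liver). Every sunitinib library lay above every vehicle library in BAT and below in eWAT for these 5 genes. Kcne3 had low values in both tissues. The tables were shrunk and normalized separately, and the part of that in the differences was not tested.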

How the results depend on the processing

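With 1 library left out, the lone sample is assumed to vary like the intact pair. The median of the members then ran from 0.17 to 0.42 in BAT, −0.40 to −0.11 in eWAT, −0.39 to −0.19 in iWAT and −0.06 to −0.02 in liver. Members called higher ran from 0 to 22 in BAT and 0 to 5 in iWAT, and called lower from 0 to 4 in eWAT, 0 to 17 in iWAT and 0 to 2 in liver. Of all genes, 0% to 3.62% were called higher in BAT and 0% to 16% in iWAT, and 0% to 3.09% lower in eWAT, 0% to 11.5% in iWAT and 0.234% to 2.25% in liver. Members without overlap and higher ran from 30 to 35 in BAT, 0 to 8 in eWAT, 1 to 6 in iWAT and 4 to 6 in liver, and lower from 23 to 34 in eWAT, 21 to 28 in iWAT and 14 to 22 in liver. Over the 4 tissues 31.8% to 42.5% of all genes were then higher without overlap and 32.1% to 45% lower. Members whose effect differed ran from 1 to 13 for BAT minus eWAT, 0 to 21 for BAT minus iWAT, 0 to 16 for BAT minus liver, 0 to 5 for eWAT minus iWAT, 1 to 6 for eWAT minus liver and 0 to 18 for iWAT minus liver, against 0.632% to 5.64%, 0% to 19%, 0% to 2.9%, 0% to 21.3%, 1.33% to 6.01% and 0% to 26.2% of all genes. Vwf in eWAT ran from −0.671 to 0.0722, and changed sign without vehicle replicate 2 (limma adjusted p = 0.873, and 0.328 to 0.873 over its alternatives).

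With no filter on low values, 1 member was called lower in eWAT (0.845% of all genes) and 3 differed between BAT and eWAT (2.27%); more genes enter the adjustment there. Median centring moved the iWAT median to −0.26 and gave 1 member higher without overlap. In 1 fit over the 4 tables, 8 members were called lower in iWAT, against 11.1% of all genes. A minimum mean of 5 gave a liver median of −0.0939 over fewer genes, and quantile normalization gave 2 members higher without overlap in liver. With no trend, a robust fit or quantile normalization, 2 members differed between eWAT and liver, against 3.89%, 4.68% and 4.31% of all genes. The cause of these shifts was not tested beyond the smaller or larger gene sets named. After quantile normalization or centring, the median difference of all genes lay between −0.0232 (iWAT, centring) and 0.00631 (BAT, quantile). In the reported fits it lay between −0.0046 (BAT) and 0.0098 (iWAT).

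Same-numbered libraries share only a number as far as the labels go. Their deviations from the group means correlated at −0.26 in BAT, 0.22 in eWAT and 0.11 in iWAT, over genes. With the replicate block 5 members were called lower in eWAT (Cd93, Cd300lg, Cldn5, Cdh5 and Ushbp1), against 2.73% of all genes, and 0 in BAT and iWAT. A crossed pairing in BAT, chosen after seeing the data, called 0. Liver numbers are not shared between groups.

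Of 469 alternative values for named genes, 406 kept direction and side of the threshold, 36 passed only under the alternative, 26 passed only in the reported fit and 1 changed sign. Of 261 that kept every library, 250 kept both, and of 208 with a library left out, 156 did.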
